A study of Mus musculus with 12 samples.

Results

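The subject is RNA typical of red blood cells in mouse heart cardiomyocyte libraries. It was read from 6 of the 25239 gene symbols in each of 2 count tables. The 6 genes are the alpha globins Hba-a1 and Hba-a2, the adult beta globins Hbb-b1, Hbb-bs and Hbb-bt, and Alas2. They were taken by symbol, and the near-identical alpha copies and adult beta copies were each summed per library before the groups were set side by side within a table. The genes were picked with their levels in both genotypes known, so their levels and differences are given as a description, with no test, and support nothing further. All 6 symbols had counts in both tables, and after summing, the alpha sum, the adult beta sum and Alas2 all passed the filter on low counts.

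The libraries form 4 groups of 3. Mice with Myh6-Cre, a Cre recombinase under a cardiomyocyte promoter, and floxed Chaf1a alleles were set against mice with the floxed alleles and no Cre, so Cre and genotype cannot be told apart; the deposit also calls the controls WT. Chaf1a encodes the large subunit of CAF-1, a histone chaperone of DNA replication. The first table holds the groups titled Ctrl and Chaf1a cko, and the 3M table holds Ctrl 3M and Chaf1a cko 3M. They are called controls and cko libraries here, with their replicate numbers. What 3M stands for is not written out, and no age is stated for either table. Per the labels, RNA came from cultured cardiomyocytes and every library is of batch 1. Whether the libraries of a group stem from different animals is not stated, so a p-value measures the spread between libraries, and that spread may be technical. Levels were not compared between the tables.

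Hemoglobin, the oxygen carrier of red blood cells, is built from 2 alpha and 2 beta chains, each holding a heme. Erythroid precursors make globin RNA at very high levels, and young red cells keep some of it after the nucleus is lost. Alas2 encodes the erythroid form of 5-aminolevulinate synthase, which starts heme synthesis, whereas other tissues use Alas1. Mouse strains differ at the beta locus: Hbb-bs and Hbb-bt are the adult genes of the single haplotype, and Hbb-b1 and Hbb-b2 are the major and minor adult genes of the diffuse haplotype. The strain is not given in the labels. Cardiomyocytes themselves carry myoglobin, encoded by Mb, rather than hemoglobin.

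How alike the copies are decides how far their counts can be read apart. In RefSeq on GRCm38.p6, Hba-a1 (Entrez gene 15122, protein coding, chr11:32283672-32284486) and Hba-a2 (110257, chr11:32296492-32297310) have coding sequences of 429 bases that differ at 1 base, C381T, counted from 1 at the start codon with the base of Hba-a1 first. The stretch from coding base 352 to 411 is printed here with that base in capitals:
Hba-a1: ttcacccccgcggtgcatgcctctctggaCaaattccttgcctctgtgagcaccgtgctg
Hba-a2: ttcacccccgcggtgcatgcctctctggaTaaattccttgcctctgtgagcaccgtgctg
Hbb-bs (100503605, chr7:103826523-103827928) and Hbb-bt (101488143, chr7:103812524-103813923) have coding sequences of 444 bases that also differ at 1 base, C417T, with the base of Hbb-bs first. The stretch from coding base 385 to the stop codon at 444 is printed with that base in capitals:
Hbb-bs: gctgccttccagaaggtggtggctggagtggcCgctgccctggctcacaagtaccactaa
Hbb-bt: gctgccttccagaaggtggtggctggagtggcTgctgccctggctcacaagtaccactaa
Of the 330 windows of 100 bases in the coding sequence of Hba-a1, 281 (85.2%) were found unchanged in Hba-a2. Of the 345 such windows in Hbb-bs, 317 (91.9%) were found unchanged in Hbb-bt. A read from most places in these coding sequences therefore fits either copy. No window of 50 bases was shared between the coding sequences of Hba-a1 and Hbb-bs. Sequences of Hbb-b1 (Entrez gene 15129) and Hbb-b2 (15130) were not used here.

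The sequence just upstream of the start site is shown because the 3 units of the description, alpha, beta and Alas2, are controlled in the same cell lineage. The 120 bases before the start are given 5′ to 3′ on the gene's strand, from RefSeq on GRCm38.p6, with capitals for motif matches on either strand. The motifs searched were the CACCC box, the CCAAT box, ATATAA as a TATA box, and a GATA word spelled AGATAA or with T for its first base, with G for its last base, or with both changes. On the other strand the CCAAT box reads ATTGG, the CACCC box GGGTG and the first GATA word TTATCT. The windows are chr11:32283552-32283671 on the plus strand for Hba-a1, chr7:103827929-103828048 on the minus strand for Hbb-bs and chrX:150547297-150547416 on the plus strand for Alas2 (Entrez gene 11656, chrX:150547417-150570622):
Hba-a1: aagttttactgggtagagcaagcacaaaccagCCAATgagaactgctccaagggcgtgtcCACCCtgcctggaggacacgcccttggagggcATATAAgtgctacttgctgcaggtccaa
Hbb-bs: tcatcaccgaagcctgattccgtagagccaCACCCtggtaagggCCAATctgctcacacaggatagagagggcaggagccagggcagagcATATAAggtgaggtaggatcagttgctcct
Alas2: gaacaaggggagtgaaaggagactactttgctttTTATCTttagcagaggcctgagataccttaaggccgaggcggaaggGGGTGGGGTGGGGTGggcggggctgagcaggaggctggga
CACCC was found in all 5 matched members, the printed genes plus Hba-a2 and Hbb-bt, and in 31.7% of the 32851 promoter windows of this length in the RefSeq table. CCAAT was found in the 4 globin genes and in 21.3% of windows, and ATATAA in the same 4 genes and in 4.47% of windows. A GATA word was found in Alas2 and in 12.8% of windows. Farther upstream, outside these windows, a GATA word began at -183 in Hba-a1, -186 in Hba-a2 and -210 in Hbb-bs, counted from the start site. How common it is there among all promoters was not counted. In these 5 genes no match shared a base with another. The upstream sequence of Hba-a2 equals that of Hba-a1 over all 247 bases compared, shifted by 3 bases. These matches describe the letters of the windows and say nothing about binding.

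The first table had 15068468 to 20896673 counts per library, and the 3M table had 10569325 to 16445963. Levels are given as CPM (counts scaled to library size by TMM factors). Chaf1a, counted over the whole gene and thus also over exons outside the floxed part, was at 18.8 to 32.3 CPM in the controls and 21.9 to 29 CPM in the cko libraries, and at 1.87 to 9.74 CPM in the 3M controls and 5.53 to 8.33 CPM in the 3M cko libraries. It did not separate the groups in either table, so each direction below is that of the libraries labelled Chaf1a cko, whatever their Chaf1a RNA. The first table held low counts in nearly all genes: 94.8% to 97.7% of 1507 chemoreceptor genes, taken as mostly silent in heart, had counts in each library, against 1.13% to 1.66% in the 3M table. The 95th percentile of their mean levels, 5.32 CPM, serves as the background level of the first table, and it was 0 in the 3M table. This level takes no account of gene length, so a gene above it may still hold only such low counts. The 14 cardiomyocyte markers, led by Myh6, summed to 114331 to 121700.1 CPM in the first table and 39500.2 to 60682 CPM in the 3M table. Endothelial markers summed to 11025 to 15870 CPM and fibroblast markers to 2105 to 3302 CPM in the 3M table. The cardiomyocyte sums therefore do not show how pure the cells were.

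Counts of single globin copies moved between names from library to library in ways that the sums did not. In the first table Hba-a1 held 91.5%, 92.2% and 39.2% of the alpha counts in controls 1 to 3, and 54.3%, 72.1% and 90.7% in cko libraries 1 to 3. Hba-a1 led in 5 libraries and Hba-a2 in control 3. The beta copies were split more sharply. Hbb-b1 had 9057, 10749 and 36 counts in the controls and 13860, 16755 and 16005 counts in the cko libraries. Hbb-bs had 555, 687 and 12888 counts in the controls and 362, 239 and 704 counts in the cko libraries. Control 3 thus had 99.0% of its adult beta counts under Hbb-bs, while the other 5 libraries had 93.1% to 97.6% under Hbb-b1. Hbb-bt never passed 1.03% there. The adult beta sum of control 3, at 615 CPM, nevertheless lay between those of controls 1 and 2.

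The split in the 3M table was close to complete in most libraries. Hba-a1 held 99.8%, 99.8% and 3.03% of the alpha counts in the 3M controls and 0.461%, 23.9% and 99.9% in the 3M cko libraries, so that Hba-a1 led in 3 libraries and Hba-a2 in the other 3. Hbb-b1 held 99.5%, 81.0% and 100% of the adult beta counts in the 3M controls, and 0.0285%, 0.0436% and 100% in the 3M cko libraries. Nearly all adult beta counts of 3M cko libraries 1 and 2 were under Hbb-bs, with 17553 and 16038 counts, and these were the libraries with the most globin. Hbb-bt had 959 counts, 17.3% of the adult beta counts, in 3M control 2 and at most 11 counts in the other 5 libraries. Hbb-bs had 0 counts in 3M control 3 and 3M cko library 3.

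Fitted as separate genes, the copies gave differences that contradict each other. In the first table the log2 fold change (cko over control) was 0.44 for Hba-a1 and 0.60 for Hba-a2, and 1.11 for Hbb-b1, -3.30 for Hbb-bs and 0.74 for Hbb-bt. Those of the 3M table were -0.14 for Hba-a1 and 2.01 for Hba-a2, and -2.71 for Hbb-b1, 8.63 for Hbb-bs and -5.99 for Hbb-bt. Fitted changes of Hbb-bs and Hbb-bt in the 3M table rest on libraries at or near 0 and depend on the prior count. How reads shared by copies were assigned was not stated in the sources used here. Values of a single copy are therefore uncertain, and the levels below are those of the sums.

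**Figure D1:**
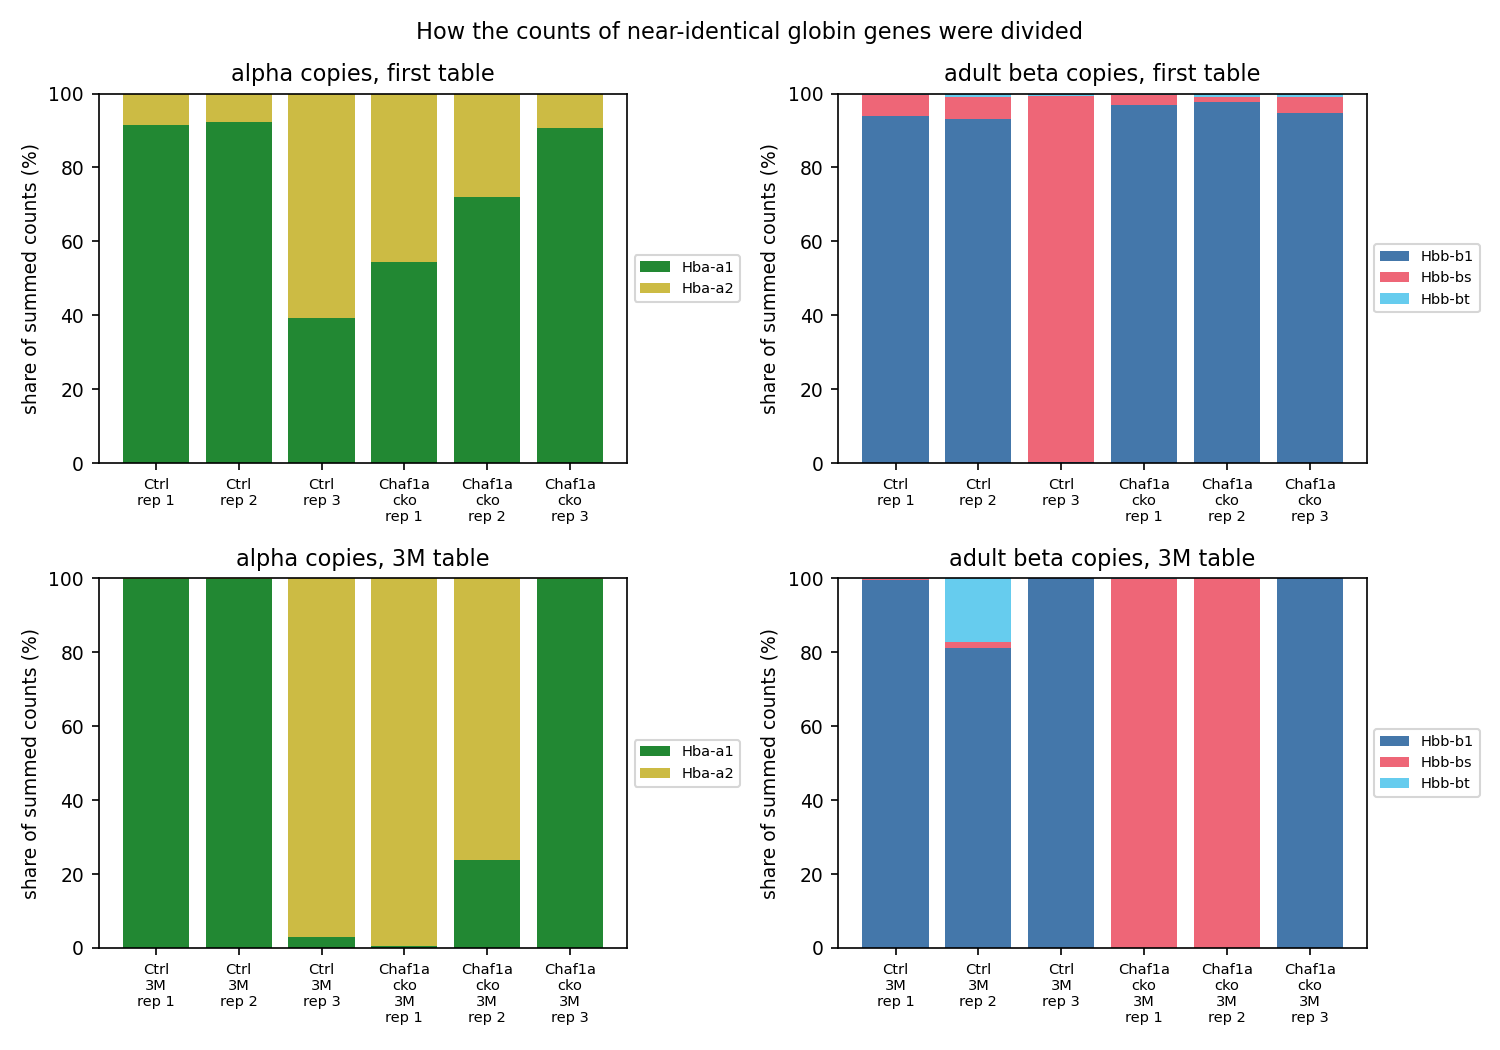
Share of the summed counts (%, y axis) that each alpha copy (left) and each adult beta copy (right) held in each library (x axis) of the first table (top) and the 3M table (bottom). Hbb-bs filled control 3 of the first table and 3M cko libraries 1 and 2, and Hbb-b1 led in the other libraries.

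In the first table the alpha sum was at 1592, 1502 and 1503 CPM in the controls and at 2141, 2137 and 2152 CPM in the cko libraries. The 3 cko libraries lay close together and above the 3 controls, with no overlap. The means were 1532 ± 51.7 CPM and 2143 ± 7.73 CPM (SD, n = 3 each), a 1.40-fold difference and a log2 fold change of 0.48 with a standard error (SE) of 0.03. Whether all globin counts came from red cells was not tested. If they did, such a difference in bulk samples can come, among other sources, from the number of red cells or from the RNA in each of them. These cannot be told apart.

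The adult beta sum was at 646, 597 and 615 CPM in the controls and at 859, 912 and 832 CPM in the cko libraries. Again the groups did not overlap, and the ratio of means, 1.40, equalled that of the alpha sum. The means were 619 ± 24.6 CPM and 868 ± 40.3 CPM (SD, n = 3 each), with a log2 fold change of 0.49 (SE 0.04). Alas2, on the X chromosome, was at 95.2, 92.0 and 89.7 CPM in the controls and at 133.02, 118 and 103 CPM in the cko libraries. Its cko libraries were higher without overlap but more spread than those of the globin sums. The means were 92.3 ± 2.78 CPM and 118 ± 15.2 CPM (SD, n = 3 each), a 1.28-fold difference and a log2 fold change of 0.35 (SE 0.09). Of all genes tested in the first table, 8.34% were likewise higher in the cko libraries with no overlap, and since the genes were picked on this contrast, nothing is read from their 3 of 3.

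In the 3M table the same sums varied widely within each group. The alpha sum was at 673, 377 and 1020 CPM in the 3M controls and at 2337, 2198 and 443 CPM in the 3M cko libraries, a 6.19-fold range over the 6 libraries. Among the cko libraries of the 3M table, numbers 1 and 2 stood above the 3M controls, while number 3 lay among them. The means were 690 ± 322 CPM and 1659 ± 1056 CPM (SD, n = 3 each), with a log2 fold change of 1.27 and an SE of 0.69. Without 3M cko library 3 the log2 fold change was 1.72, and without 3M cko library 1 it was 0.94.

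The adult beta sum of the 3M table was at 404, 327 and 704 CPM in the 3M controls and at 1645, 1029 and 208 CPM in the 3M cko libraries. The highest and the lowest library were thus both 3M cko libraries, and the groups overlapped. The means were 478 ± 199 CPM and 961 ± 721 CPM (SD, n = 3 each), with a log2 fold change of 1.01 (SE 0.75). It was 0.37 without 3M cko library 1 and 1.48 without 3M cko library 3. Alas2 was at 12.4, 6.51 and 13.9 CPM in the 3M controls and at 25.1, 20.2 and 2.99 CPM in the 3M cko libraries, an 8.39-fold range. As for the globin sums, 3M cko libraries 1 and 2 were highest. The lowest was 3M cko library 3, as for the adult beta sum, whereas the alpha sum was lowest in 3M control 2. The means were 10.9 ± 3.9 CPM and 16.1 ± 11.6 CPM (SD, n = 3 each), with a log2 fold change of 0.56 (SE 0.71), which became 0.09 without 3M cko library 1, 0.29 without 3M control 2, 0.36 without 3M cko library 2 and 1.05 without 3M cko library 3. None of the 3 units was higher without overlap in the 3M table, where 7.21% of all genes tested were.

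**Figure D2:**
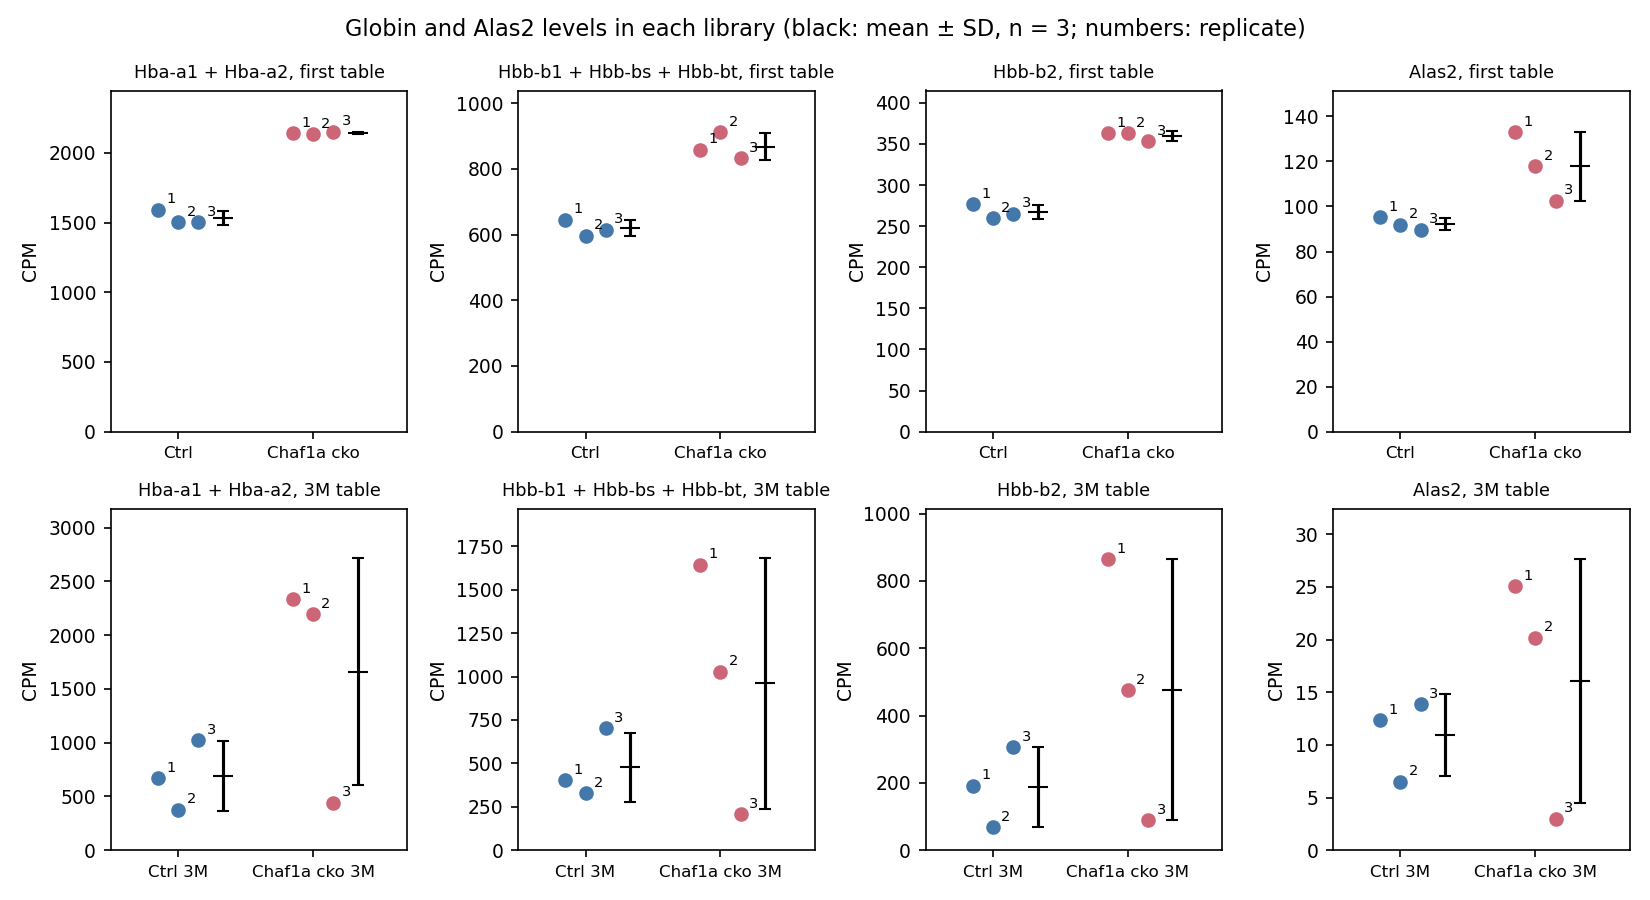
Level (CPM, y axis from 0) of the alpha sum, the adult beta sum, Hbb-b2 and Alas2 in each library (points, numbered by replicate) by group (x axis), with mean ± SD in black (n = 3), first table above and 3M table below. In the first table the alpha sum was at 1502 to 1592 CPM in the controls and 2137 to 2152 CPM in the cko libraries; among the 3M cko libraries, numbers 1 and 2 stood high and number 3 low.

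Hbb-b2, the minor adult beta gene of the diffuse haplotype, is not among the 6 genes but is counted beside them. The first table had it at 277, 260 and 265 CPM in the controls and at 363, 363 and 353 CPM in the cko libraries. It rose from 267 ± 8.55 to 360 ± 5.54 CPM (SD, n = 3 each) without overlap, as did 8.34% of all genes tested. The log2 fold change was 0.43 (SE 0.05), with an adjusted p of 4.53e-05 from the quasi-likelihood test of edgeR. The 3M table had it at 192, 67.7 and 306 CPM in the 3M controls and at 865, 475 and 90.3 CPM in the 3M cko libraries, with a log2 fold change of 1.34 (SE 0.93) and an adjusted p of 0.817 in edgeR. Without 3M cko library 1 the log2 fold change was 0.59, without 3M control 2 it was 0.94 and without 3M control 3 it was 1.88. Its reads may be shared with the other beta genes, so its level is as uncertain as theirs. For the same reason its test is no separate support for the difference in the sums. The libraries whose adult beta counts lay under Hbb-bs also held Hbb-b2 counts, 5614 in control 3 and 9240 and 7403 in 3M cko libraries 1 and 2.

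The chains went together in a near-constant ratio in the first table. Alpha counts over adult beta counts were 2.47, 2.52 and 2.44 in the controls and 2.49, 2.34 and 2.58 in the cko libraries, with means of 2.48 ± 0.0364 and 2.47 ± 0.122 (SD, n = 3 each). The group difference in this ratio was smaller than the spread within either group. Hbb-b2 counts over adult beta counts ran from 0.398 to 0.435 over the 6 libraries, including control 3, where Hbb-bs had taken the place of Hbb-b1. Adult beta counts over Alas2 counts ran from 6.46 to 8.12.

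These ratios were looser in the 3M table. Alpha over adult beta was 1.67, 1.15 and 1.45 in the 3M controls and 1.42, 2.14 and 2.12 in the 3M cko libraries, with means of 1.42 ± 0.258 and 1.89 ± 0.410 (SD, n = 3 each). The groups overlapped, and 3M cko libraries 2 and 3 shared nearly the same ratio although their alpha levels, 2198 and 443 CPM, were far apart. Hbb-b2 over adult beta was 0.207 in 3M control 2, which had 1144 Hbb-b2 and 959 Hbb-bt counts. It was 0.433 to 0.526 in the other 5, which had at most 11 Hbb-bt counts each. Whether reads of Hbb-b2 were counted under Hbb-bt in 3M control 2 was not tested, so both its Hbb-b2 level and its adult beta sum are uncertain. Adult beta over Alas2 ran from 32.6 in 3M control 1 to 69.7 in 3M cko library 3.

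**Figure D3:**
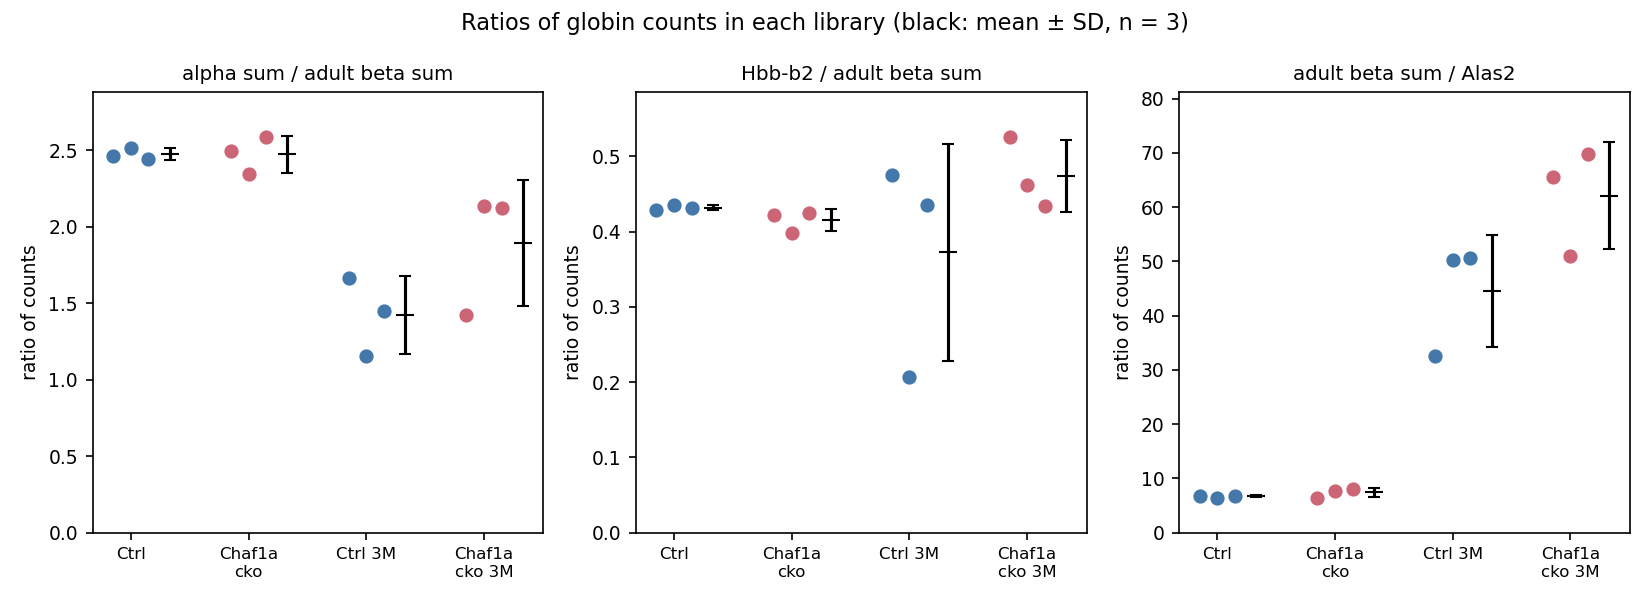
Ratios of counts (y axis from 0) for alpha sum over adult beta sum, Hbb-b2 over adult beta sum and adult beta sum over Alas2 in each library (points) by group (x axis), with mean ± SD in black (n = 3). Alpha over adult beta stayed between 2.34 and 2.58 in the first table and ran from 1.15 to 2.14 in the 3M table.

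Globin RNA was a small part of each library. Alpha, adult beta and Hbb-b2 counts together made up 0.249%, 0.239% and 0.241% of the counts in the controls and 0.338%, 0.342% and 0.324% in the cko libraries. They made up 0.120%, 0.0794% and 0.202% in the 3M controls and 0.490%, 0.370% and 0.0755% in the 3M cko libraries. Leaving the globin rows out of the scaling left the log2 fold changes of both sums and Alas2 at the 2-decimal values given for both tables. Levels per kilobase of coding sequence compare different genes only roughly. Transcripts are longer than their coding parts, at 699 against 429 bases for Hba-a1 and 550 against 465 for Mb. The adult beta sum also leaves out Hbb-b2. On this scale the controls of the first table had 3572 CPM for the alpha sum and 1395 CPM for the adult beta sum. Mb had 1980 CPM and Alas2 had 52.3 CPM there. In the 3M controls the order differed, with 6554 CPM for Mb, 1609 CPM for the alpha sum, 1077 CPM for the adult beta sum and 6.19 CPM for Alas2.

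Mb, the myoglobin of muscle cells, was the reference point from the cardiomyocyte side. It was at 921 ± 59 CPM in the controls and 931 ± 12.6 CPM in the cko libraries of the first table (SD, n = 3 each), with a log2 fold change of 0.02 and an adjusted p of 0.944 in edgeR; the sign turned under a filter of 10 CPM, under scaling by library total and without control 2. Mb was at 3048 ± 1132 CPM in the 3M controls and 2358 ± 364 CPM in the 3M cko libraries, with a log2 fold change of -0.37 and an adjusted p of 0.816 in edgeR. That log2 fold change was -0.029 without 3M control 3 and -0.55 without 3M control 2. Globin counts over Mb counts were 2.56, 2.72 and 2.61 in the controls and 3.56, 3.70 and 3.61 in the cko libraries of the first table, and 0.332 to 1.79 in the 3M table. Cygb, a globin of fibroblasts and other tissues, went from 14.6 ± 4.52 to 9.06 ± 2.08 CPM in the first table and did not pass the test (adjusted p 0.295 in edgeR).

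Beyond the globin sums and Alas2, 70 genes of red cells were listed: minor and embryonic globins, heme synthesis, the red cell membrane, red cell enzymes and late maturation, and erythroid transcription factors. Of these, 68 were in the tables and 66 were tested in the first table. In edgeR at an adjusted p below 0.05, 2 were higher (Hbb-b2 and Tal1), 1 was lower (Aqp1) and 63 did not pass, against 0.753% higher and 0.431% lower, 1.18% in all, among the 22962 genes tested. Hbb-b2 is itself an adult beta gene that may share reads with the sum, so its call is not independent of the members. The median log2 fold change of the tested list was 0.02, beside -0.01 over all genes. Of the 68 genes, 23 had mean levels at or below the background of the table.

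Embryonic and minor globins other than Hbb-b2 were near nothing. Hba-x, the embryonic alpha-like gene, was at 1.28 ± 0.688 CPM in the controls and 1.54 ± 0.434 CPM in the cko libraries (SD, n = 3 each), and 6 of the 7 listed genes present lay at or below background in the first table. Counts of Hba-x, Hbb-y, Hbb-bh1, Hbb-bh2 and Hbq1b were 0 in all 6 libraries of the 3M table, where 3 counts would be 0.177 to 0.281 CPM. Embryonic globin RNA was thus not detectable above background in the first table, nor at this depth in the 3M table.

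None of the 14 heme synthesis and mitochondrial transport genes passed the test in the first table, and 2 had an unadjusted p below 0.05, both upward, a share near that of all genes (2326 of 22962). Slc25a37, mitoferrin of the erythroid lineage, was at 39.9 ± 2.40 CPM in the controls and 52.2 ± 3.89 CPM in the cko libraries, with a log2 fold change of 0.39 (SE 0.11) and an adjusted p of 0.124 in edgeR and 0.0196 in DESeq2. Fech, ferrochelatase, which puts iron into heme, was at 76.9 ± 3.83 and 91.2 ± 6.97 CPM, with a log2 fold change of 0.25 (SE 0.08) and an adjusted p of 0.254 in edgeR. Alas1, the enzyme of other tissues, was at 95.1 ± 4.88 and 94.2 ± 7.70 CPM. None of the 14 passed in the 3M table, and their median log2 fold change was 0.09.

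Red cell membrane genes gave no call upward in the first table. Of 18 tested, 0 were higher and 1 was lower, beside 0.753% and 0.431% of all genes tested. Their median log2 fold change was -0.07. Aqp1, a water channel of red cells and also of heart endothelium, fell from 131.4 ± 9.73 to 103 ± 6.39 CPM (SD, n = 3 each), with a log2 fold change of -0.36 (SE 0.08) and an adjusted p of 0.0238 in edgeR. The call was lost without control 1 (adjusted p 0.116 in edgeR), control 2 (0.0961), cko library 1 (0.0510), cko library 2 (0.0957) or cko library 3 (0.168). Sptb, erythroid beta spectrin that striated muscle also makes, was at 172 ± 10.1 and 145 ± 6.57 CPM, with an adjusted p of 0.0863 in edgeR. Slc4a1, the anion exchanger band 3 and a defining surface gene of red cells, was at 19.2 ± 3.46 CPM in the controls and 16.2 ± 5.56 CPM in the cko libraries. Both means lay above the background level, which takes no account of gene length. Whether these counts were red cell RNA was not tested.

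Of 17 red cell enzyme and maturation genes tested in the first table, 0 passed and the median log2 fold change was 0.04. Prdx2, peroxiredoxin 2, was at 128 ± 8.47 CPM in the controls and 128 ± 8.56 CPM in the cko libraries. Car1, Hemgn, Trim10, Trim58, Cldn13, Isg20, Epor and Tfr2 lay at or below background.

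Of 12 erythroid transcription factors tested in the first table, 1 was higher, beside 0.753% of all genes tested. Tal1, a factor of blood and endothelial cells, rose from 9.37 ± 1.29 to 26.5 ± 1.46 CPM (SD, n = 3 each), with a log2 fold change of 1.5 (SE 0.17) and an adjusted p of 7.03e-05 in edgeR. Tal1 was at 16.9 to 56.0 CPM in the 3M controls and 33.1 to 39.8 CPM in the 3M cko libraries, with a log2 fold change of -0.16. Gata1 and Klf1, the factors that define erythroid precursors, were below background in the first table, at 1.84 ± 0.155 and 1.6 ± 0.448 CPM in the controls and 2.11 ± 0.809 and 1.39 ± 0.446 CPM in the cko libraries. Each of them had counts in 1 library of the 3M table, at 0.321 and 0.237 CPM.

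Of the 68 red cell genes, 43 were tested in the 3M table and 0 passed in edgeR or DESeq2, against 0.0144% of 13922 genes in edgeR; 1 had an unadjusted p below 0.05, Sptb. Their median log2 fold change was 0.08, beside -0.02 over all genes. The red cell genes Epb42, Rhag, Add2, Car1, Hemgn, Trim58, Cldn13 and Gfi1b had 0 counts in all 6 libraries, which with the 5 globins named makes 13 of the 68. Slc4a1 was at 0 to 1.28 CPM. Bpgm, which makes the 2,3-bisphosphoglycerate of red cells, was at 13.9, 6.98 and 15.2 CPM in the 3M controls and at 19.5, 24.0 and 5.09 CPM in the 3M cko libraries. It was lowest in 3M cko library 3 and highest in 3M cko library 2; the adult beta sum and Alas2 were also lowest in 3M cko library 3 and were highest in 3M cko library 1.

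**Figure D4:**
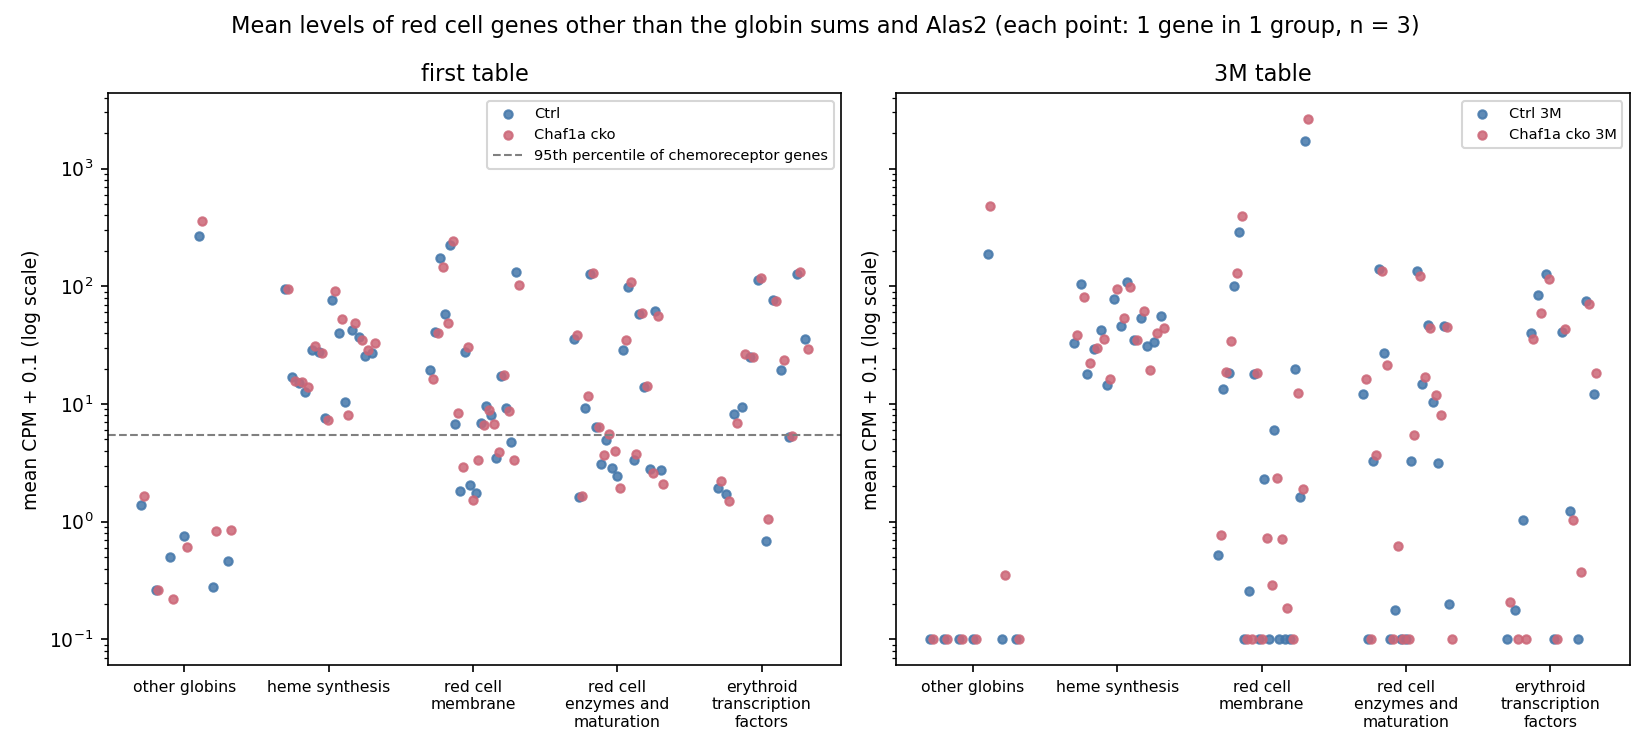
Mean level (CPM + 0.1, log y axis) of each listed red cell gene other than the summed globins and Alas2, by gene list (x axis) and group (color, n = 3), in the first table (left) and the 3M table (right); the dashed line is the background level of the first table. Apart from Hbb-b2 the other globins lay below the line, and 23 of 68 genes in the first table were at or below it.

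The genes whose profile over the 6 libraries was most like that of the adult beta sum were found by Pearson correlation of log2 CPM, given without a p. For the first table these were Ncapd2 (r = 0.998), Nuf2 (0.995), H3c1 (0.994), Nt5c (0.994) and Hmgb2 (0.994), and 171 genes were above 0.95. Alpha sum and Hbb-b2 had r of 0.985 and 0.993, Tal1 0.986 and Alas2 0.865. There the libraries fall into the 2 genotype groups, so any gene that differs steadily between these scores high. In the 3M table, where the groups overlapped, the nearest genes were Has3 (0.992), Paqr9 (0.989), Stam2 (0.987), Plag1 (0.983) and Ensa (0.983), and 28 genes were above 0.95. Hbb-b2 (0.952), the alpha sum (0.951), Alas2 (0.941) and Bpgm (0.901) were close behind, and Mb was at 0.272. The 6 points of each r share depth and scaling with all other genes of those libraries.

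Genes that handle free hemoglobin, heme and iron were counted as well. Of 12 genes tested, 1 passed in the first table, beside 1.18% of all genes tested. Lrp1, the receptor of the heme carrier hemopexin and of many other ligands, fell from 217 ± 10.2 to 181 ± 3.23 CPM, with a log2 fold change of -0.26 (SE 0.06) and an adjusted p of 0.0274 in edgeR. The call was lost without each library in turn, at adjusted p values of 0.0687 to 0.155 in edgeR. Hmox1, heme oxygenase 1, was at 32.4 ± 0.656 and 24.1 ± 4.11 CPM with an adjusted p of 0.252 in edgeR. The ferritin chains Fth1 and Ftl1 were at 342 ± 7.95 and 276 ± 26.8 CPM in the controls and 362 ± 27.2 and 311 ± 21.5 CPM in the cko libraries. None of the 11 tested in the 3M table passed.

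Markers of other cells moved beside the globins in places. The 12 fibroblast markers summed to 3800.0 to 3894 CPM in the controls and 3183 to 3223 CPM in the cko libraries of the first table, and 5 of them fell, including Col1a1 (log2 fold change -0.39, adjusted p 3.69e-06 in edgeR). Of 14 cardiomyocyte markers 3 rose and 4 fell, among them Myh6 (log2 fold change -0.13, adjusted p 1.84e-06 in edgeR). None of the platelet, neutrophil, lymphocyte, macrophage or endothelial markers passed. Of all 90 markers of other cells tested, 3 were higher and 9 lower, beside 0.753% higher and 0.431% lower among all genes tested. The 12 platelet markers summed to 74.8 to 90.5 CPM in the controls and 69.6 to 76.7 CPM in the cko libraries, and the 14 neutrophil markers to 52.5 to 54.0 and 49.8 to 55.2 CPM; 9 and 11 of these genes lay at or below background. The 14 endothelial markers summed to 4088 to 4396 CPM in the controls and 4165 to 4201 CPM in the cko libraries, and in each of these 3 sums the ranges of the groups overlapped. The part of fibroblasts and cardiomyocytes in the globin difference was not tested.

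Of 72 markers of other cells tested in the 3M table, 0 passed in edgeR and DESeq2 called 1. An unadjusted p below 0.05 was found for 16 of them, 5 higher and 11 lower, beside 965 of the 13922 genes tested. Platelet markers summed to 61.5 to 95.5 CPM in the 3M controls and 45.4 to 72.0 CPM in the 3M cko libraries, neutrophil markers to 13.4 to 31.6 and 4.83 to 18.9 CPM, and lymphocyte markers to 4.20 to 15.9 and 4.45 to 9.55 CPM. 3M cko library 3, low in globin, also had the lowest platelet and neutrophil sums, at 45.4 and 4.83 CPM. Platelet sums ranked as globin did within each group, at 64.3, 61.5 and 95.5 CPM in 3M controls 1 to 3 and 72.0, 64.9 and 45.4 CPM in 3M cko libraries 1 to 3. Over both groups together, their order departed from that of globin only in 3M control 3, which had the highest platelet sum. Neutrophil and lymphocyte sums ranked as globin did in the 3M controls but not in the 3M cko libraries. 3M cko library 1, with the most globin, had a neutrophil sum of 12.5 CPM, below every 3M control. The lowest lymphocyte sum, 4.20 CPM, was in 3M control 2, the 3M control with the least globin. The 14 macrophage markers summed to 619 to 803 CPM in the 3M controls and 372 to 492 CPM in the 3M cko libraries, and the cardiomyocyte markers to 39500.2 to 49905 and 56803 to 60682 CPM. The part of these cells in the globin values was not tested.

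Sex-linked RNA also differed between the groups of the first table. Uty, Kdm5d, Eif2s3y and Ddx3y, which are Y-linked, summed to 61.1, 52 and 50 CPM in the controls and 133.9, 122 and 115 CPM in the cko libraries, and Xist, the RNA of the inactive X chromosome, was at 290 to 620 CPM and 270 to 323 CPM. A difference in the mixture of sexes and the genotype cannot be told apart for the globins or for X-linked Alas2 there. The Y-linked sum of the 3M table was at 393 to 646 CPM in the 3M controls and 355 to 394 CPM in the 3M cko libraries, and Xist was at 0 to 3.97 CPM.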

How the data were processed

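RNA of 12 mouse heart cardiomyocyte libraries was used in 2 tables of 6. The authors deposited gene counts, whole numbers per gene symbol and library without normalization. Per the submitters' processing notes, FastQC, Trimmomatic and HISAT2 with mm10 were used. Libraries were stranded and depleted of ribosomal RNA, per the labels. Not given in the sources used here are the counting program, its annotation, its strand setting and its treatment of reads that fit several genes.

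Libraries were grouped by their titles. Alpha copies (Hba-a1, Hba-a2) and adult beta copies (Hbb-b1, Hbb-bs, Hbb-bt) were summed, and each table had its own fit with edgeR 4.0.16 (R 4.3.3, limma 3.58.1): filterByExpr (minimum count 10, minimum total 15), TMM, glmQLFit with robust estimation, glmQLFTest, two-sided, Benjamini-Hochberg over all genes, threshold 0.05. Fits were tested on simulated data. Fold changes are cko over control. Correlations used a prior count of 0.5.

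The members and gene lists were chosen with earlier results of these data known. Named were all members, up to 4 called genes of each list with the smallest p or, with fewer than 2 called, up to 3 of its most abundant, and the 5 genes most like the adult beta sum; predicted loci were left out. Hbb-b2 in the beta sum, the library check genes, the defining red cell genes (Slc4a1, Gata1, Klf1 and those at 0), Bpgm, Hmox1 and Fech beside their lists were added with their values in view. Some genes of the lists are not reported here by name. The alternatives tried were DESeq2 1.42.0 (test and size factors), library totals, scaling without globin rows, 2 other filters, background subtraction, copies fitted alone, Hbb-b2 added to the beta sum, a replicate block and each library left out.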

Additional observations from a re-analysis of the deposited data

How the results depend on the processing

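The log2 fold changes of the alpha sum, the adult beta sum and Alas2 stayed positive under each scaling, filter, test and left-out library tried, in both tables; fitting single copies was the exception. Alone, Hba-a1 and Hba-a2 gave 0.44 and 0.60 in the first table and Hba-a1 gave -0.14 in the 3M table; Hbb-b1, Hbb-bs and Hbb-bt gave 1.11, -3.30 and 0.74 in the first table and -2.71, 8.63 and -5.99 in the 3M table. Adding Hbb-b2 to the beta sum, an alternative chosen after seeing the data, gave 0.47 and 1.11. With each library left out in turn the first table gave 0.47 to 0.51 for the alpha sum, 0.45 to 0.52 for the beta sum and 0.25 to 0.44 for Alas2, and the 3M table gave 0.94 to 1.72, 0.37 to 1.48 and 0.09 to 1.05.

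Red cell genes called in the first table numbered 3, 5 in DESeq2 and 2 to 3 with a library left out; Lrp1 lost its call with the replicate block (adjusted p 0.0581 in edgeR). Mb in the first table turned to -0.010 (10 CPM filter), -0.0021 (library total) and -0.028 (without control 2), within -0.028 to 0.066 over the left-out libraries. Markers of other cells in the 3M table had 1 call in DESeq2 and 0 in edgeR. Calls over all genes numbered 272 in the first table, 493 in DESeq2 and 135 to 210 with a library left out (at most 164 without any library other than control 1); in the 3M table they numbered 2, 72 in DESeq2, 6 without the filter and 0 to 5 with a library left out (0 without any of the cko libraries). The cause was not tested.

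Replicate numbers are shared between groups, but same-numbered libraries did not deviate together (r of -0.02, 0.03 and 0.06 in the first table and -0.04, -0.01 and -0.00 in the 3M table), so the numbers were not used as pairs. With the replicate block, calls over all genes numbered 195 in the first table and 0 in the 3M table, and the block gave 1.14, 0.77 and 0.28 for the alpha sum, the beta sum and Alas2 of the 3M table. Alas2 in the 3M table rested on 47 to 315 counts per library.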
